A study of Homo sapiens with 12 samples.

Results

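The genes that encode 10 chaperones of histone H3 were examined in 6 ChIP-seq libraries of MCF10AER/vSrc cells. They are HIRA, UBN1, UBN2 and CABIN1 (the HIRA complex), ASF1A and ASF1B, DAXX and ATRX, and the CAF-1 subunit genes CHAF1A and CHAF1B. The genes were named for what they encode, not for any measured value, but the choice was made with earlier results of these data known. Enriched regions were assigned to a gene if they overlapped its body in the hg38 build or the 2 kb on either side. This gave 112 of the 161480 deposited regions, over 10 of 19974 protein-coding genes (autosomes and X). MCF10A is an immortalised line of human breast epithelium that does not form tumours, and ER/vSrc is an oncogenic kinase, v-Src, joined to part of the estrogen receptor. All samples carried the label WT for genotype and were grown in charcoal-stripped serum with EGF, insulin, hydrocortisone and cholera toxin, and no label names an inducer of ER/vSrc. The groups were untreated control cells and cells at 4 h and at 24 h after D-alanine, each probed for H3.1/H3.2 (H3.1 below) and for H3.3. The dose of D-alanine is labelled 10 nM, which was not checked against another source. By the series design the treatment generated nuclear reactive oxygen species, and no enzyme acting on D-alanine is named. Each histone and time had 1 ChIP library and 1 input library, so no comparison between times or histones has a replicate check and none was tested.

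Histone chaperones carry H3-H4 and hand it to DNA. CAF-1 deposits the replication-coupled variants H3.1 and H3.2 behind the replication fork, and its largest subunit, p150, is encoded by CHAF1A and its p60 subunit by CHAF1B. The HIRA complex deposits H3.3 independently of replication, mainly at active genes, and DAXX with the chromatin remodeller ATRX deposits H3.3 at telomeres, pericentromeric heterochromatin and other repeats. ASF1A and ASF1B pass H3-H4 on to HIRA or CAF-1. What was mapped here is H3 at the genes for these proteins, not the amount or activity of the proteins.

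ChIP depth was 16837079 to 19576955 tags per library, and lists held between 3628 and 81405 regions. The lowest number of ChIP tags in any listed region was 8 to 10 per list. A gene without a region is therefore one where none was called, which says nothing on absence of the histone. Input depth, recovered from the scaled tag columns, was the same at this precision (about 16600000 tags) for 3 lists: H3.3 control, H3.3 24 h and H3.1 4 h. Whether 1 input served more than 1 list was not tested.

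At the 8 genes whose strand was known from the RefSeq promoter table (GRCh38.p14), 3 regions lay within 1000 bp of an annotated start, 1 each at HIRA, UBN1 and CHAF1B. Distances from the starts of DAXX and ATRX were not measured, and each of these genes had a region across one of its ends. The 250 bases before the starts of HIRA, UBN1 and CHAF1B, from the same table, are printed here because among the 8 genes they are the promoters nearest to a called region. Each reads 5′ to 3′ along the gene's own strand. Capitals mark the GC box (GGGCGG, or CCGCCC on the other strand) and the CCAAT box (CCAAT, or ATTGG on the other strand), which do not overlap one another.
HIRA promoter, chr22:19431734-19431983, minus strand: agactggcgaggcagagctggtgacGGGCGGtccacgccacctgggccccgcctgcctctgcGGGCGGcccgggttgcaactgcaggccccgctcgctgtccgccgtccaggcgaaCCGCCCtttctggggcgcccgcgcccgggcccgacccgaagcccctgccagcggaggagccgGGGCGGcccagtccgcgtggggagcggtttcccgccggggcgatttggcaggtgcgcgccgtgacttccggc
UBN1 promoter, chr16:4847231-4847480, plus strand: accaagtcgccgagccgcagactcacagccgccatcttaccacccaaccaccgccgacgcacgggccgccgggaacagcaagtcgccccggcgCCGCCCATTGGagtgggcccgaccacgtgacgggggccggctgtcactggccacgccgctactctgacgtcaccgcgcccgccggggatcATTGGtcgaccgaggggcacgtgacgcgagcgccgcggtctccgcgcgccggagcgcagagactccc
CHAF1B promoter, chr21:36385142-36385391, plus strand: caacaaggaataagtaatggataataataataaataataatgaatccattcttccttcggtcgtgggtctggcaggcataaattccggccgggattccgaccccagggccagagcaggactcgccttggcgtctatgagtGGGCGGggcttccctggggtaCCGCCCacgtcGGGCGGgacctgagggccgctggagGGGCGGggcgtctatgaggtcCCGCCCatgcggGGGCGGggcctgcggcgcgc
The HIRA promoter held 4 GC boxes and no CCAAT box, that of UBN1 1 GC box and 2 CCAAT boxes, and that of CHAF1B 6 GC boxes and no CCAAT box. Of 34943 RefSeq promoters of the same length, 42.5% held a GC box and 32.0% a CCAAT box. CG dinucleotides numbered 33, 38 and 21 in the HIRA, UBN1 and CHAF1B promoters, against a median of 11.0 over all promoters. The promoters of the other members were not counted, so no link to the nearby regions is read from this. No region of any list overlapped a promoter window of the 8 genes. The UBN1 stretch ended 111 bp short of its nearest region (H3.1 24 h, upstream), the CHAF1B stretch 337 bp (H3.1 control, inside the gene) and the HIRA stretch 579 bp (H3.3 24 h, inside the gene). A match of these letters describes the sequence and is not evidence of a bound factor.

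In untreated cells H3.1 was called at 7 of the 10 chaperone genes (44.3% of all protein-coding genes had one), at 2 after 4 h (17.1% of all genes) and at 3 after 24 h (28.4%). H3.3 was called at 6 genes in control cells (21.3% of all genes), at 2 after 4 h (8.97%) and at 8 after 24 h (60.2%). The number of regions at the 10 genes was 33, 2 and 5 for H3.1 and 8, 2 and 62 for H3.3, in the order control, 4 h and 24 h. The genes thus followed the length of the whole lists, which also were shortest at 4 h for both histones and longest for H3.1 in control cells and for H3.3 at 24 h. CABIN1 was the one chaperone gene with a region in all 6 lists, and ASF1A the one with none. UBN2 and CHAF1B shared a pattern over the 6 lists, with a region in H3.1 control and H3.3 24 h alone, and no other pair of genes had the same set of lists. The 4 HIRA complex genes held 28 of the 33 H3.1 control regions and 49 of the 62 H3.3 24 h regions. Most of these lay at CABIN1 alone, with 19 in H3.1 control and 28 in H3.3 24 h. CABIN1, HIRA and UBN2 are also among the longest of the 10 genes, so these counts are not read as a trait of the complex.

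**Figure D1:**
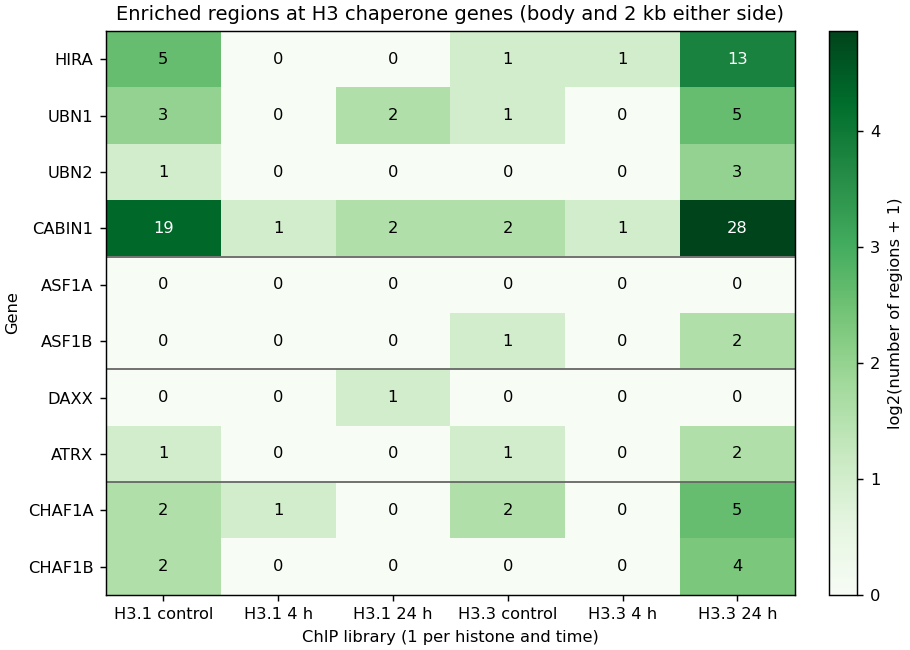
Number of enriched regions at each chaperone gene (rows, grouped by complex) in each of the 6 lists (columns). Colour is log2 of the number plus 1, and the number is printed in each cell. CABIN1 leads with 19 in H3.1 control and 28 in H3.3 24 h, and ASF1A is at 0 throughout.

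Gene length differed widely among the 10 genes and limits how many regions a gene can hold. Among protein-coding genes over 60 kb, 57.2% held an H3.1 control region and 79.5% an H3.3 24 h region, and all 4 chaperone genes of that size (HIRA, UBN2, CABIN1 and ATRX) held both. In the band of 20 to 60 kb these shares were 47.0% and 64.8%, and UBN1, CHAF1A and CHAF1B held both. Under 20 kb they were 35.0% and 45.7%. Of ASF1A, ASF1B and DAXX, none held an H3.1 control region and ASF1B held H3.3 24 h regions.

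HIRA, the H3.3 chaperone that gives its complex its name, spans chr22:19330698-19431733 (101 kb, minus strand). It held 5 H3.1 regions in control cells, 0 after 4 h and 0 after 24 h, and 1, 1 and 13 H3.3 regions at the same times. The highest-scoring H3.1 control region (chr22:19356093-19356879, 75.2 kb from the start) held 16.1 normalised tags, meaning tags per 10000000 tags of the ChIP library, from 30 ChIP tags against 1 input tag. Its fold over input, as deposited by the authors, was 25.4 (exact 95% interval 4.23 to 1037), and the single input tag makes the upper bound very wide. The H3.1 control regions all lay with centres between 46.1 and 78.7 kb from the start, in the middle and far parts of the gene. H3.1 was listed no nearer than 6.84 kb from the gene body at 4 h and 66.5 kb at 24 h.

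The 1 H3.3 control region of HIRA (chr22:19353503-19354003) had 22.3 normalised tags, 40 ChIP tags against 9 input tags, and a fold of 4.1 (1.97 to 9.64). It had more tags than 90.8% of its list. The 1 region of 4 h lay elsewhere in the gene (chr22:19409344-19409844, 22.1 kb from the start), with 8.99 normalised tags and a fold of 5.31 (1.52 to 28.4). At 24 h the 13 H3.3 regions ran along almost the whole gene, between 0.9 and 99.9 kb from the start, and covered 7.94% of the gene with its flanks. The highest-scoring of them (chr22:19398770-19399270) held 9.71 normalised tags, 4.02-fold over input (1.34 to 16.3). The region nearest to the promoter printed above (chr22:19430515-19431155) held 9.19 normalised tags, 18 ChIP tags against 2 input tags, at a fold of 7.62 (1.82 to 67.7). It also lay within 2 kb of MRPL40, a mitochondrial ribosomal protein gene. The H3.3 control region shared 9 bp with a 24 h region, and the 4 h region shared 347 bp with another.

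CABIN1, which encodes calcineurin-binding protein 1, a subunit that joins the HIRA complex, spans chr22:24011304-24178628 (167 kb, plus strand). It held 53 of the 112 regions, or 47.3%. H3.1 regions numbered 19 (control), 1 (4 h) and 2 (24 h), and H3.3 regions 2, 1 and 28. Their summed normalised tags were 248, 12 and 20.2 for H3.1, and 18.4, 12.4 and 372 for H3.3. Such sums move with how much was called: H3.1 regions covered 8.83% of the gene with its flanks without treatment, 0.292% at 4 h and 0.657% at 24 h, and H3.3 regions 0.584%, 0.292% and 12.5%.

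The highest-scoring H3.1 control region of CABIN1 (chr22:24157178-24157954) held 19.3 normalised tags, 6.10-fold over input (2.39 to 19.9). The widest, chosen after its values were seen, extended over 2475 bp (chr22:24151665-24154140) and held 32.2 normalised tags, 60 ChIP tags against 10 input tags, at a fold of 5.08 (2.58 to 11.1). All 19 lay 59.0 kb or more from the start, and 17 of them past the gene's midpoint. The 4 h region (chr22:24172484-24172984) held 12 normalised tags, 6.62-fold over input (1.98 to 34.7) and shared 180 bp with a control region. The higher-scoring of the 2 regions of 24 h (chr22:24166991-24167491) held 11.3 normalised tags, 5.11-fold over input (1.70 to 20.7).

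For H3.3, the leading CABIN1 region in control cells (chr22:24097918-24098418) held 10.6 normalised tags, 8.79-fold over input (2.12 to 77.9). At 4 h the region (chr22:24169728-24170228) held 12.4 normalised tags, 5.48-fold over input (1.86 to 21.8). At 24 h 5 regions tied for the highest score, with folds between 4.23 and 8.75, and the one with the most tags (chr22:24071408-24072602) held 19.9 normalised tags, 8.25-fold over input (2.98 to 31.8). The region with the most tags of all 28 at 24 h, chosen after its values were seen, was 2026 bp wide (chr22:24129854-24131880) and held 35.8 normalised tags, 70 ChIP tags against 4 input tags, at a fold of 14.8 (5.54 to 55.9). It held more tags than 99.1% of the H3.3 24 h list. The 24 h regions lay on both sides of the middle of the gene, 11 before it and 17 past it. One of them lay before the start (chr22:24009494-24009994), 1310 bp from it.

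**Figure D2:**
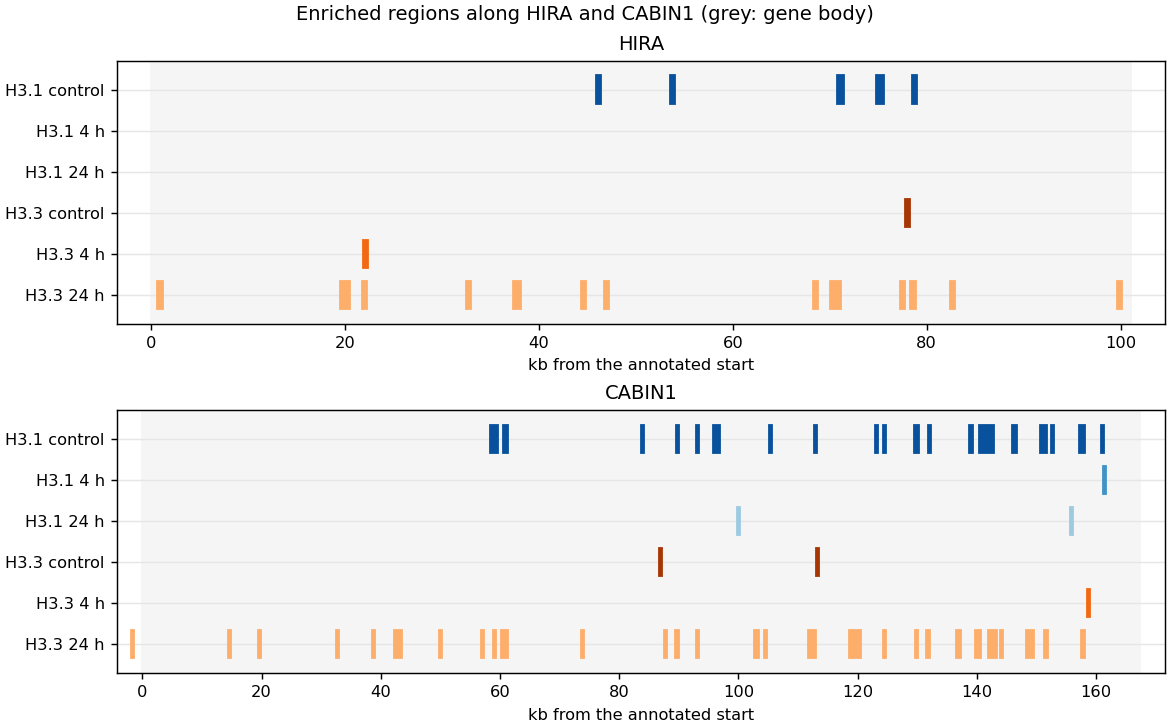
Regions along HIRA and CABIN1, with kb from the annotated start on the horizontal axis and 1 row per list. Each bar is a region at its deposited width, with a thin outline that keeps narrow ones visible, and grey is the gene body. H3.3 24 h regions run along both genes, whereas the 19 H3.1 control regions of CABIN1 begin 59.0 kb from its start.

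UBN1 and UBN2 encode ubinuclein paralogues, which bind H3.3 within the HIRA complex. UBN1 (chr16:4847481-4882401, 34.9 kb, plus strand) held 3 H3.1 regions without treatment, 0 at 4 h and 2 at 24 h, and likewise 1, 0 and 5 H3.3 regions. The highest-scoring H3.1 control region (chr16:4882958-4883458) lay past the end of the gene, within 2 kb also of PPL, the gene of the cornified envelope protein periplakin. It held 12.9 normalised tags, 4.07-fold over input (1.52 to 13.6). The other 2 lay inside the gene, 21.9 and 27.6 kb from the start.

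At 24 h 1 of the 2 H3.1 regions of UBN1 lay inside the gene, 14.4 kb from the start. The other, with the higher score, lay upstream (chr16:4846620-4847120), 361 bp before the start and beside the UBN1 promoter printed above. It held 19.0 normalised tags, 32 ChIP tags against 8 input tags, at a fold of 4.30 (1.94 to 10.8). It scored above 98.1% of the H3.1 24 h list and was within 2 kb also of the neighbouring gene GLYR1, so it cannot be assigned to UBN1 alone. The H3.3 control region (chr16:4881928-4882428) held 11.2 normalised tags from 20 ChIP tags and 1 input tag, 18.5-fold over input (2.96 to 767). It lay across the far end of UBN1, again near PPL. Of the 5 H3.3 regions of 24 h, 2 tied for the highest score, and the one with more tags (chr16:4859256-4859756) held 10.7 normalised tags, 5.93-fold over input (1.77 to 31.0). The 5 lay between 12 and 30.9 kb from the start.

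UBN2 (chr7:139231237-139330428, 99.2 kb, plus strand) held fewer regions than its paralogue although it is the longer gene. H3.1 was called once, in control cells (chr7:139326820-139327320, 95.8 kb from the start), with 9.11 normalised tags from 17 ChIP tags and 1 input tag, 14.4-fold over input (2.26 to 602). H3.3 was called at 3 places at 24 h, led by chr7:139241583-139242083 with 10.2 normalised tags, 4.23-fold over input (1.42 to 17.0). Neither histone was called there at 4 h. The H3.3 control list held a region 2.88 kb from the gene body, just beyond the 2 kb limit.

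ASF1A and ASF1B are short genes for closely related proteins, of which ASF1B is the form tied to proliferation. ASF1A (chr6:118894152-118909171, 15.0 kb) was without a region in any list. The nearest was 31.5 kb away in the H3.3 24 h list and between 64.7 and 305 kb away in the other 5. ASF1B (chr19:14119512-14136589, 17.1 kb, minus strand) held no H3.1 region, the nearest being 5.62 kb away in control cells, 19.5 kb at 4 h and 4.26 kb at 24 h. Its H3.3 control region (chr19:14117155-14117655) lay past the end of the gene, near PRKACA, which encodes a catalytic subunit of protein kinase A. It held 10.6 normalised tags, 4.40-fold over input (1.46 to 17.8). At 24 h the highest-scoring of 2 H3.3 regions (chr19:14127021-14127680) lay inside the gene, with 11.7 normalised tags, 4.87-fold over input (1.66 to 19.4). The other again lay past the end near PRKACA.

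DAXX (chr6:33318558-33322959, 4.40 kb) encodes the chaperone that binds H3.3 directly. Its only region was of H3.1 at 24 h (chr6:33317996-33318624), across the end of lower coordinate and within 2 kb of ZBTB22, a zinc finger gene. That region held 9.50 normalised tags, 16 ChIP tags against 3 input tags, at a fold of 5.74 (1.64 to 30.7). No H3.3 region was called at DAXX, and the nearest was 24.7 kb away in control cells, 6.93 kb at 4 h and 23.5 kb at 24 h.

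ATRX (chrX:77504880-77786216, 281 kb), the longest of the 10 genes, encodes the remodelling ATPase that works with DAXX. It held 1 H3.1 region in control cells (chrX:77527403-77528320), with 13.9 normalised tags, 7.34-fold over input (2.25 to 37.9), and none at 4 h or 24 h. Its H3.3 control region (chrX:77785855-77786355) lay across the end of higher coordinate, with 14.0 normalised tags, 5.78-fold over input (2.0 to 22.9). At 24 h H3.3 was called at 2 other places inside the gene, led by chrX:77734799-77735299 with 9.71 normalised tags, 4.02-fold over input (1.34 to 16.3). ATRX thus held 0.701 H3.3 24 h regions per 100 kb with its flanks, against 3.64 per 100 kb over all protein-coding genes of any length. CABIN1 held 16.3 on the same scale and HIRA 12.4. The median protein-coding gene over 60 kb held as many H3.3 24 h regions as ATRX, although the mean of those genes was higher. The number at ATRX is therefore not read as low for its length.

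CHAF1A (chr19:4402640-4450830, 48.2 kb, plus strand) held 2 H3.1 regions without treatment, 1 at 4 h and 0 at 24 h, and likewise 2, 0 and 5 H3.3 regions. The highest-scoring H3.1 control region (chr19:4443041-4443541) held 15.5 normalised tags, 29 ChIP tags against 5 input tags, at a fold of 4.91 (1.88 to 16.3). It scored above 97.7% of its list and lay within 2 kb also of the neighbouring gene UBXN6, so it cannot be assigned to CHAF1A alone. The other H3.1 control region of CHAF1A had 13 ChIP tags and no input tag, which gives a fold of at least 3.67 if the input is set at 3 tags. At 4 h the single H3.1 region (chr19:4418658-4419158) held more normalised tags than just 0.114% of its list, with 11 ChIP tags against 2 input tags and a fold of 5.20 (1.14 to 48.3). At 24 h the nearest H3.1 region was 2.67 kb from the gene body.

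The H3.3 control regions of CHAF1A lay towards the end of the gene, where UBXN6 is also within 2 kb. The highest-scoring (chr19:4447603-4448239) held 17.3 normalised tags, 4.78-fold over input (1.97 to 14.0). At 24 h the H3.3 regions lay nearer to the start, between 2.8 and 32.1 kb from it, and were led by chr19:4405209-4405709 with 9.19 normalised tags, 5.08-fold over input (1.48 to 26.9).

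CHAF1B (chr21:36385392-36419015, 33.6 kb, plus strand) held 2 H3.1 regions in control cells and none after D-alanine. The 2 had the same score. One of them (chr21:36385728-36386228) began 336 bp inside the gene, downstream of the CHAF1B promoter printed above, and held 7.5 normalised tags, 14 ChIP tags against 2 input tags, at a fold of 5.93 (1.36 to 53.8). The other (chr21:36403835-36404335) held 8.04 normalised tags, 4.24-fold over input (1.2 to 22.8). H3.3 was not called in control cells or at 4 h, where the nearest regions were 110 and 278 kb away. At 24 h there were 4 H3.3 regions, led by chr21:36388617-36389117 with 8.68 normalised tags, 4.8-fold over input (1.39 to 25.6). One of the 4 shared 278 bp with an H3.1 control region.

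**Figure D3:**
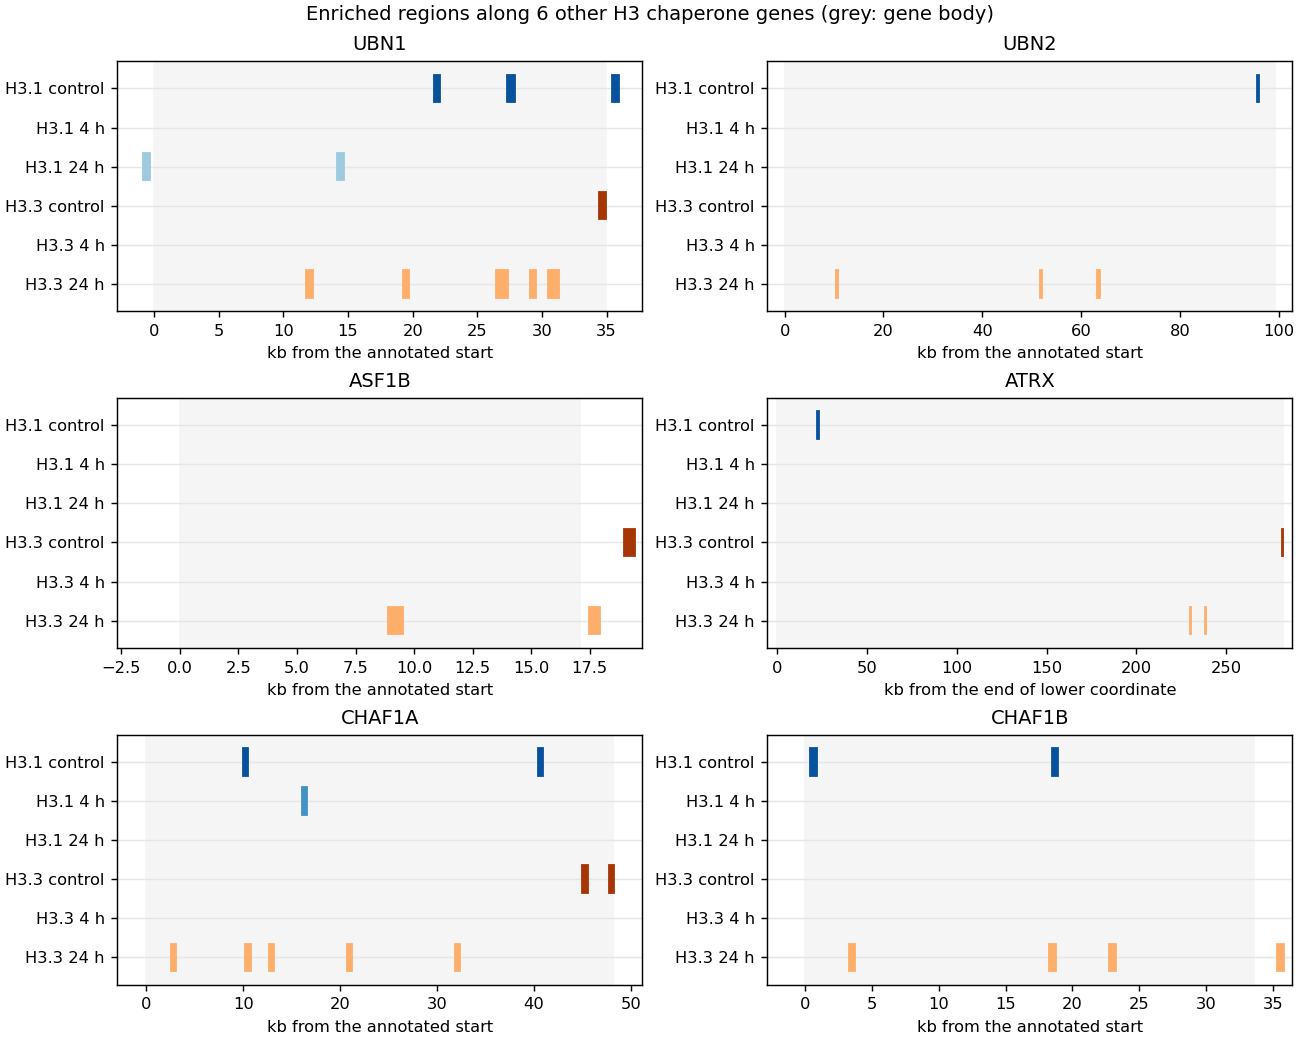
Regions along UBN1, UBN2, ASF1B, ATRX, CHAF1A and CHAF1B, drawn as distance in kb from the annotated start (for ATRX, from the end of lower coordinate) with 1 row per list. One H3.1 24 h region of UBN1 lies 361 bp before the start. The H3.3 control regions of UBN1, ASF1B and CHAF1A lie at or near the far end of the gene. That of ATRX lies across its end of higher coordinate, and which end is the start of ATRX was not determined here.

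The share of each list that fell at the 10 genes varied less than the region numbers. Per 10000 regions of the list, 7.34 H3.1 control regions lay at these genes (exact 95% Clopper-Pearson interval 5.05 to 10.3), then 2.52 at 4 h (0.306 to 9.12), then 3.67 at 24 h (1.19 to 8.57). The H3.3 values were 8.13 without treatment (3.51 to 16), then 5.53 at 4 h (0.670 to 20.0), then 7.62 at 24 h (5.84 to 9.77). The intervals of the 3 times overlapped for both histones, which does not show that the shares were alike. These intervals cover counting error only and treat regions of 1 gene as independent, which they may not be. Without CABIN1 the shares were 3.11, 1.26 and 2.20 for H3.1 and 6.10, 2.77 and 4.18 for H3.3. Dropping CABIN1 brought the regions to 14, 1 and 3 for H3.1 and 6, 1 and 34 for H3.3.

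**Figure D4:**
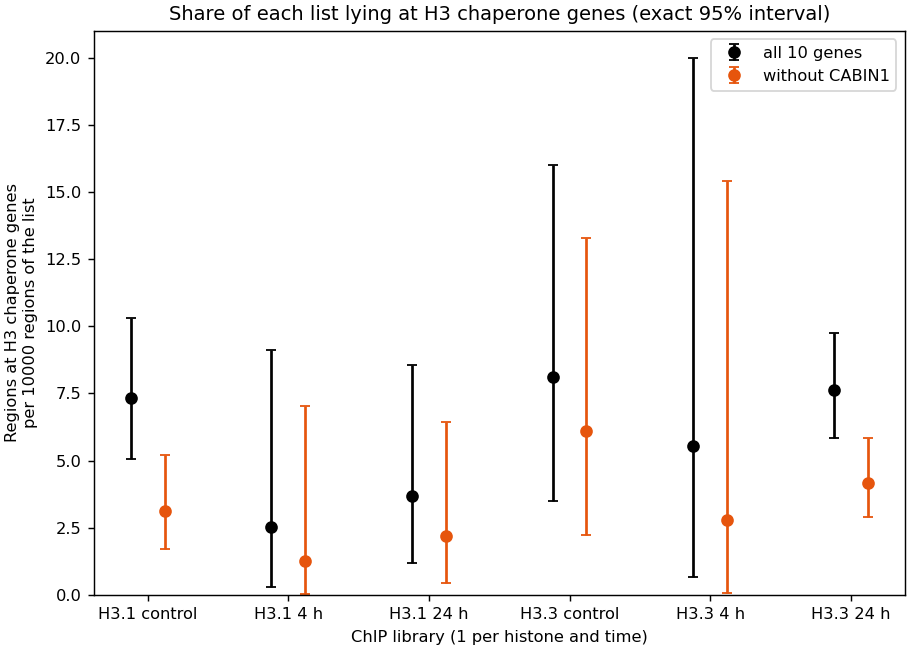
Regions at the chaperone genes per 10000 regions of each list, for all 10 genes and without CABIN1, with exact 95% intervals that cover counting error only. H3.3 24 h sits at 7.62 and H3.3 control at 8.13 although their lists differ in length, and leaving out CABIN1 takes H3.1 control to 3.11.

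Measured by length, the 10 genes with their flanks held 3.92 H3.1 control regions per 100 kb, against 2.14 over all protein-coding genes. The values were 0.237 against 0.381 at 4 h and 0.594 against 0.722 at 24 h. For H3.3 they were 0.95 against 0.513 in control cells, 0.237 against 0.164 at 4 h and 7.36 against 3.64 at 24 h. Without CABIN1, H3.1 control had 2.09 regions per 100 kb, close to the value for all genes. H3.3 control then had 0.894 and H3.3 24 h 5.07, both above the value for all genes. The first rests on 6 regions, and HIRA alone held 13 of the 34 regions behind the second. The value without HIRA was not computed, so no trait of the 10 genes as a set is read from these. Leaving it out gave 0.149 (4 h) and 0.447 (24 h) for treated H3.1 and 0.149 for H3.3 4 h.

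Fold over input at these genes was close to that of the lists. The median fold of the members' regions was 5.37 for H3.1 control (6.21 over the whole list), 5.91 at 4 h (4.73) and 5.74 at 24 h (4.74). For H3.3 it was 5.28 without treatment (4.63), 5.39 at 4 h (4.98) and 6.91 at 24 h (7.34). The 2 regions of each 4 h list and the 5 of H3.1 24 h are too few to order these medians. Of the 112 regions, 9 had no input tag, and the deposited fold then rests on a stand-in of 0.5. With such regions set at 3 input tags instead, the medians were 5.08 in H3.1 control (list 5.65) and 6.50 in H3.3 24 h (list 6.35). Tags were few throughout: 80 of the 112 regions had 3 or fewer input tags, and the exact interval of the fold began above 1 in all 112 but at or above 4 in only 6. Those 6 were the HIRA H3.1 control region described above and 5 CABIN1 regions of H3.3 24 h. The authors' caller chose regions on these same tags, for which the intervals were not adjusted.

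**Figure D5:**
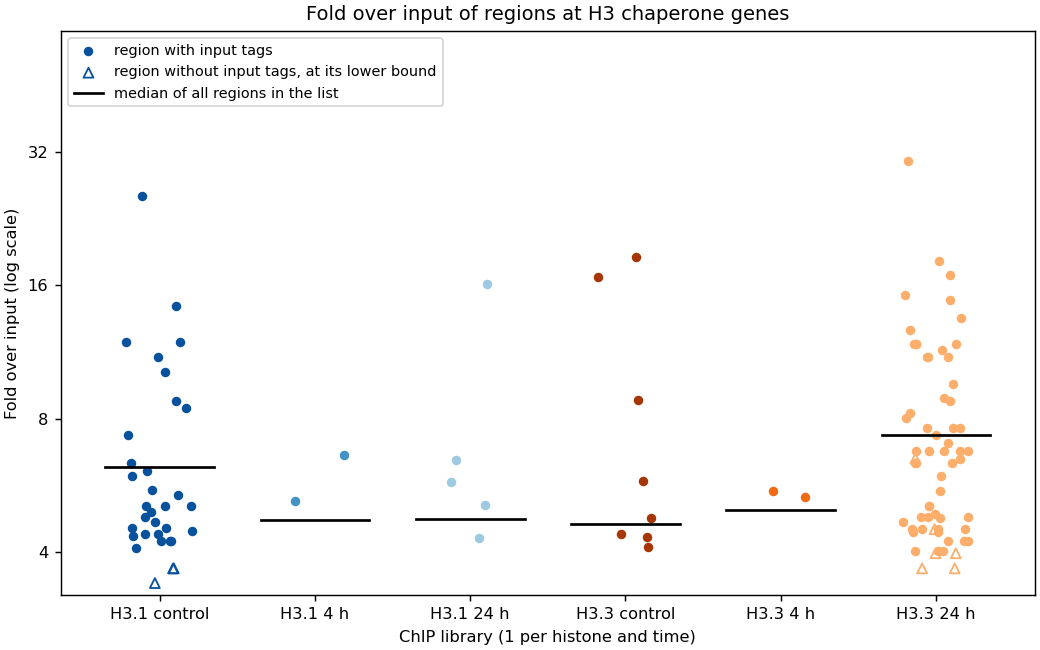
Fold over input, on a log scale, of every region at a chaperone gene in each list. Dots are regions with input tags, and the black line is the median of the whole list. Open triangles are regions without input tags, placed at the fold that 3 input tags would give (called lower bound in the legend). The H3.3 24 h list has a median of 7.34, and its members' regions lie on both sides of it.

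Regions over 1 kb wide were found only at CABIN1 and HIRA among the 10 genes. CABIN1 had 4 in H3.1 control and 6 in H3.3 24 h, and HIRA had 2 in H3.3 24 h. CABIN1 and HIRA also held the most regions of any width, 53 and 20 of the 112. The share of such wide regions in the whole lists was not counted. The authors' scores, which are not adjusted for depth, ran from 14 to 22 for the H3.3 24 h regions at these genes. None of the 62 was among the 3614 highest-scoring regions, a number set by the length of the shortest list. Those make up just 4.44% of the H3.3 24 h list, so nothing is read from the 0.

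Comparing positions between lists, H3.3 24 h and H3.1 control shared the most at these genes. Of the 62 H3.3 24 h regions, 17 overlapped an H3.1 control region (27.4%, 16.9 to 40.2), against 18.6% over the whole H3.3 24 h list. Of the 33 H3.1 control regions, 16 overlapped an H3.3 24 h region (48.5%, 30.8 to 66.5), against 33.8% over that list. Both intervals include the share of the whole list. These shared positions lay in 5 genes, CABIN1, HIRA, UBN1, CHAF1A and CHAF1B. At CABIN1 12 of 28 H3.3 24 h regions (42.9%, 24.5 to 62.8) and 11 of 19 H3.1 control regions (57.9%, 33.5 to 79.7) were shared. Without CABIN1 the counts were 5 of 34 (14.7%, 4.95 to 31.1) and 5 of 14 (35.7%, 12.8 to 64.9). At HIRA the shared stretches lay at chr22:19352797-19353270 and chr22:19360521-19360916. None of the 5 H3.1 24 h regions overlapped a region of another list, where between 1.66% and 6.77% of the whole H3.1 24 h list met each of the other lists, so nothing is read from this count.

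Other genes that handle or supply H3 were counted in the same way. Of 28 such genes, H3.1 was called at 8 (control), 3 (4 h) and 4 (24 h), and H3.3 at 5, 0 and 17. As shares these were 28.6%, 10.7% and 14.3% for H3.1 and 17.9%, 0% and 60.7% for H3.3, each to be read beside the share of all genes given above. PML, whose protein builds the nuclear bodies where DAXX is found, held 5 H3.1 control regions and 7 H3.3 24 h regions. MCM2, a replicative helicase subunit that also binds H3-H4, held 1 and 5. NASP, which keeps a soluble store of H3-H4, had an H3.1 control region across its start (chr1:45583768-45584268, fold 4.02, 1.34 to 16.3) and 2 H3.3 24 h regions, the leading one overlapping it (chr1:45583293-45583932, 26 ChIP tags against 0 input tags). Of the genes that encode H3.3 itself, H3-3B had 1 H3.1 control region and 1 H3.3 24 h region downstream, and H3-3A had none in any list. RBBP4, the gene of the smallest CAF-1 subunit, also had none.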

How the data were processed

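Chromatin immunoprecipitation and sequencing was done by the authors for 6 ChIP and 6 input libraries of MCF10AER/vSrc cells. HOMER 4.11.1, cutadapt 3.7, Bowtie2 2.4.1 and hg38 are named in the submitters' processing notes. Regions, per the file headers, were called in each ChIP library alone, against its input, in the histone style with a peak size of 500 bp, a fold of 4 and a Poisson p-value of 1e-04 over input. The deposited signal is ChIP tags per 10000000 tags, the deposited fold is a ratio of ChIP to input tags at equal depth, and the deposited score and p-value are the authors' own per region. The deposited tag columns differ in scaling: 5 lists scale ChIP to input depth, and H3.1 24 h scales input to ChIP depth.

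From these, whole ChIP and input tags were recovered (all ChIP tags whole within 0.1). Regions were counted per gene at 1 bp or more of overlap with the RefSeq body and 2 kb either side, with Python 3.11.15, pandas 2.3.3 and SciPy 1.17.1. Counting was tested on made-up regions. Distances in kb from a start are from a region's centre. Exact 95% intervals cover counting error only. With 1 library per condition no test between conditions was made. Per gene and list, the highest-scoring region was named. Strand came from the RefSeq promoter table. The members, the 28 related genes and the settings were chosen with earlier results of these data known. Alternatives were gene body alone, 5 kb either side, 250 bp of overlap, a fold of at least 8 and equal list length. Leaving out CABIN1 was added after seeing the data.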

Additional observations from a re-analysis of the deposited data

Results flagged for a closer look

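On the full lists, the number of regions moved in opposite directions for the 2 histones between control and 24 h. At all 10 genes together the difference, 24 h minus control, was -28 regions for H3.1 (5 at 24 h, 33 in control cells) and 54 for H3.3 (62 at 24 h, 8 in control cells). The same opposite signs were found at 7 of the genes, some of them by a change of 1 region. The share of all protein-coding genes with such signs was not counted, so the 7 is not read as particular to these genes. At HIRA the difference was -5 for H3.1 and 12 for H3.3, and at CABIN1 -17 and 26. At UBN1 it was -1 and 4, and at UBN2 -1 and 3. At ATRX it was -1 and 1, at CHAF1A -2 and 3, and at CHAF1B -2 and 4. The difference between histones was not tested, since each histone and time has 1 library. The whole lists moved the same way, with 13641 H3.1 regions at 24 h and 44990 in control cells, and 81405 and 9867 for H3.3. With every list held to its 3614 highest-scoring regions, H3.3 was called at 0 of the 10 genes at 24 h and at 3 in control cells. On the full lists it was called at 8 and 6. For H3.1 the numbers at this cut were 1 at 24 h and 3 in control cells. The cut keeps just 4.44% of the H3.3 24 h list, and the share of all genes was not counted there. No direction is therefore read from these numbers.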

How the results depend on the processing

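No paired analysis was possible because each histone and time has 1 library and no comparison was tested. Counts of genes with a region were within 1.5 times the reported ones in all 6 lists for the gene body alone and for 250 bp of overlap. At 5 kb either side, H3.1 24 h had 5 genes in place of 3, and the other 5 lists stayed within 1.5 times. With a fold of at least 8, H3.1 4 h and H3.3 4 h had 0 genes, H3.1 24 h 1 and H3.3 control 3. H3.1 control kept 5 genes and H3.3 24 h 7. Over all regions of the lists, 6.93% (H3.1 4 h), 7.72% (H3.3 4 h), 8.04% (H3.1 24 h) and 6.91% (H3.3 control) reached that fold. The shares were 34.5% in H3.1 control and 46.5% in H3.3 24 h, so the lower counts in the short lists are not read as a result about these genes. At equal list length (3614 highest-scoring regions), H3.3 control had 3, H3.3 24 h 0, H3.1 control 3, H3.1 4 h 1 and H3.1 24 h 1, fewer regions entering by construction. Median folds under both other windows moved by less than the interval of the pooled tags. That interval belongs to another measure and is wide in short lists (2.34 to 19.9 for H3.1 4 h), so the check is weak. In H3.3 control, for example, the median was 5.28, 5.78 for the gene body alone and 4.71 at 5 kb either side. Without CABIN1, regions numbered 14 in H3.1 control, 1 in H3.1 4 h, 3 in H3.1 24 h, 1 in H3.3 4 h and 34 in H3.3 24 h. Depth limits single regions most: many rest on 3 or fewer input tags.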
